A study of Mus musculus with 14 samples.

Results

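CC chemokine ligands are small secreted proteins with adjacent cysteines that attract leukocytes. The 10 described here (Ccl2, Ccl3, Ccl4, Ccl6, Ccl7, Ccl9, Ccl12, Ccl17, Ccl22 and Ccl24) were chosen by name among the 43432 genes of an RNA-seq table of sorted mouse lung cells. All 10 were in the table, and all 10 passed the filter on low values (a normalized count of 10 or more, reached by 2 or more libraries), which 17390 genes passed. Passing is not the same as being abundant: Ccl24 had 56 reads and Ccl12 had 100 reads over all 14 libraries together, against 479611 reads for Ccl6. The ligands Ccl7, Ccl12, Ccl17 and Ccl24 passed only because of MHCII-high libraries, since fewer than 2 of the 8 MHCII-low libraries reached a value of 10 for them.

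The cells came from lungs of male 129S1 mice, 10 to 12 weeks old, that had been given bleomycin (labelled dose 3 U/k) or water into the trachea. Bleomycin damages DNA and, given into the airway, leaves a scarred lung. Cells positive for SiglecF and CD11c, antigens that together mark alveolar macrophages, were sorted into those with high and those with low surface MHC class II (MHCII). The 5 groups were MHCII-high cells 2 weeks after bleomycin (3 libraries), MHCII-high cells 4 weeks after bleomycin (3), MHCII-low cells 2 weeks after bleomycin (3), MHCII-low cells 4 weeks after bleomycin (3) and, from mice given water, MHCII-low control cells (2, labelled replicates 1 and 3). All groups share the strain, the sex and the sort on SiglecF and CD11c, and MHCII-high cells of controls were not analysed here, so the high-against-low difference has no uninjured counterpart. The labels do not say whether replicates are separate mice, so p-values measure the spread between these libraries, which may be technical.

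Chemokines bind receptors on the surface of leukocytes, and the set of receptors a cell carries decides which ligands it follows. In the injured lung, Ccl2, Ccl7 and Ccl12 are ligands of Ccr2, the receptor by which monocytes leave the blood. Ccl17 and Ccl22 are ligands of Ccr4, carried by type 2 helper and regulatory T cells, and are products of dendritic cells and of macrophages exposed to interleukin 4. Ccl3 and Ccl4 are macrophage inflammatory proteins made by activated macrophages and lymphocytes. Ccl3 binds Ccr1, and the rodent ligands Ccl6 and Ccl9 act on Ccr1 too. Ccl24 is an eotaxin and binds Ccr3, the receptor of eosinophils.

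Values are the authors' normalized counts. Recovered depth was 15106415 to 88059627 reads a library. The genes of the sort antigens matched the labels: Itgax, which encodes CD11c, stood at 25185 to 44133 normalized counts in all 14 libraries, and the MHCII gene H2-Ab1 at 10625 to 25984 in MHCII-high and 99.7 to 1276 in MHCII-low libraries. Siglecf was read in every library, at 6461 to 9551 in MHCII-low and 3056 to 4358 in MHCII-high cells. In a principal component analysis, the first component (17% of the variance) put the MHCII-high libraries at 53.1 to 84.2 and the MHCII-low ones at -70.9 to -25.2. On the second (12.3%), 1 library of the 4-week MHCII-high group, replicate 3, was far from the rest, with 146.4 against -73.5 to 44.7 for the other 13. Ligand results that involve 4-week MHCII-high cells are therefore also given without it where that changes a call, and for some other values. Further values depend on this library too, among them the 4-week fold changes of Ccl4 and Ccl12, which are given only with it.

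At 2 weeks 4 of the 10 ligands were higher in MHCII-high than in MHCII-low cells: Ccl2, Ccl9, Ccl17 and Ccl22 (limma, adjusted p of 0.05 or less). Over all genes tested, 2.29% were called higher in that comparison and 2.87% in either direction. At 4 weeks Ccl9 and Ccl22 were higher, 2 of 10, where 1.96% of all genes were called higher and 2.5% in either direction. In the mean of both times 5 of 10 were higher, Ccl7 being the addition, against 5% of all genes called higher and 7.21% in either direction. These counts include Ccl17 and Ccl7, which could enter the test only where they were high. No ligand was called lower in any of these comparisons. Of the 6 ligands that passed the filter through MHCII-low libraries alone (Ccl2, Ccl3, Ccl4, Ccl6, Ccl9 and Ccl22), 3 were higher at 2 weeks, 2 at 4 weeks and 3 in the mean of both, where 2.17%, 1.89% and 4.8% of the 15836 genes that passed in the same way were called higher. Their median log2 fold change was 1.52 at 2 weeks, 0.98 at 4 weeks and 1.07 in the mean of both, and that of the 15836 genes was 0.04, -0.05 and -0.02.

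**Figure D1:**
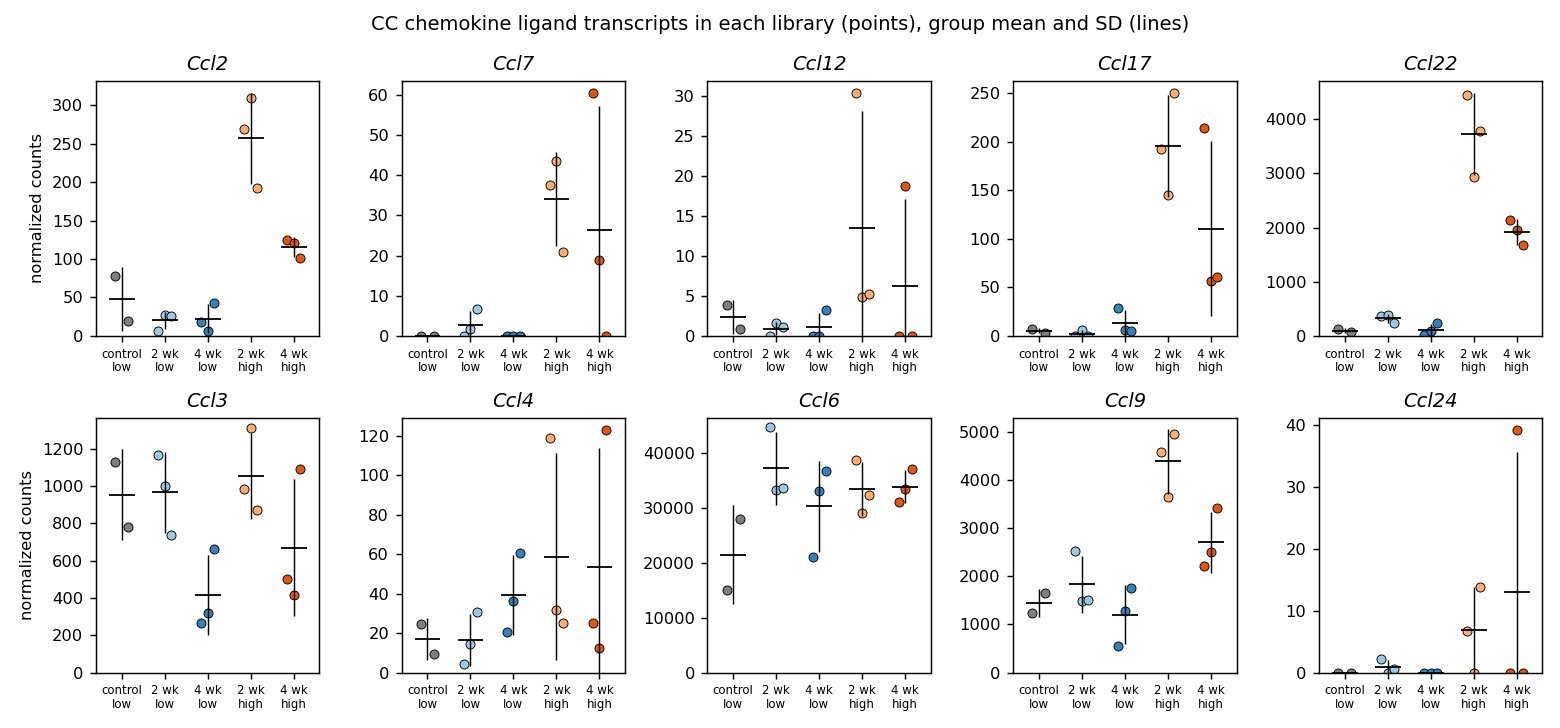
Normalized counts (y axis, its own linear scale from 0 in each panel) of the 10 ligands in 14 libraries, by group. Points are libraries, horizontal lines group means and vertical lines the SD, drawn no lower than 0. Ccl22 in MHCII-high cells (1674 to 4454) lies above every MHCII-low library (15.4 to 385), while the groups of Ccl6 and Ccl4 overlap between high and low.

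**Figure D2:**
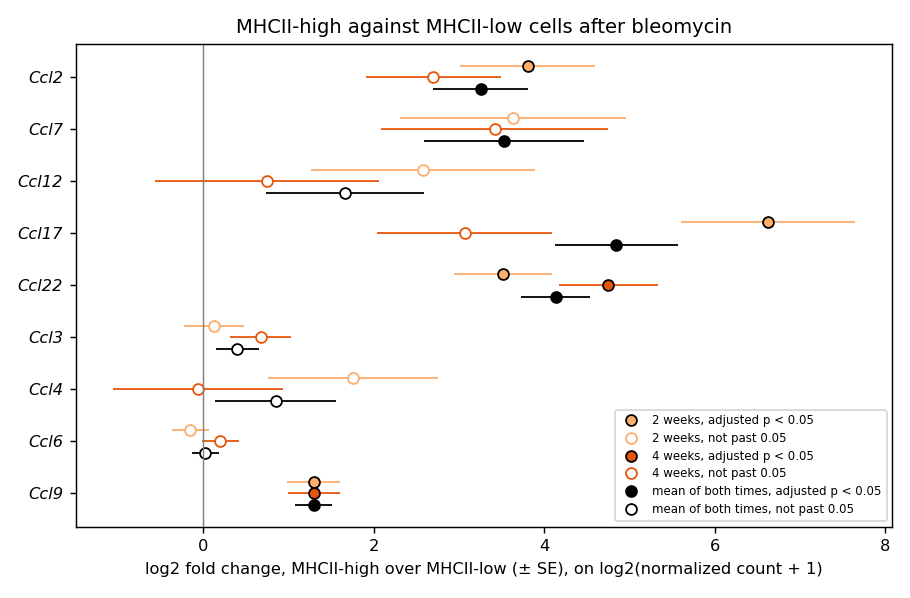
Log2 fold change of MHCII-high over MHCII-low cells on the log2(normalized count + 1) scale (x axis) for 9 ligands (y axis), at 2 weeks, 4 weeks and as the mean of both, with the standard error as bars. Filled points passed an adjusted p of 0.05 in limma. Ccl24, near 0 in most libraries, is left out. The 4-week point of Ccl7 is set against a group with no read in any library, so its size depends on the pseudocount.

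Ccl22 was higher in MHCII-high cells at both times and had the smallest adjusted p of the 10 ligands in the mean of both. The gene (ENSMUSG00000031779, chr8:94745590-94751699 on the plus strand of mm10, protein coding) was read at 4454.3, 2941.7 and 3782.7 normalized counts in the 2-week MHCII-high libraries and at 364.7, 385.4 and 235.1 in the 2-week MHCII-low ones. At 4 weeks it stood at 2147.8, 1954.9 and 1673.5 in MHCII-high and at 15.4, 92.2 and 235.6 in MHCII-low libraries, and control values were 129.7 and 63.7. The lowest MHCII-high library was thus above the highest MHCII-low one at both times. Group means were 3726 ± 758 against 328 ± 81.5 at 2 weeks (SD, n = 3 each), a ratio of 11.3, and 1925 ± 239 against 114 ± 112 at 4 weeks, a ratio of 16.8. On the log2 scale the limma difference was 3.51 ± 0.58 at 2 weeks (standard error, adjusted p = 0.001), 4.75 ± 0.58 at 4 weeks (adjusted p = 2.3e-05) and 4.13 ± 0.41 in the mean of both (adjusted p = 6.2e-07). None of the 26 alternatives tried ended any of these 3 calls of Ccl22. The difference between the weeks was 1.24 ± 0.82 (limma interaction, adjusted p = 0.92).

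Ccl17, which lies 58753 bases downstream of Ccl22 with Cx3cl1 between them, was also higher in MHCII-high cells (ENSMUSG00000031780, chr8:94810453-94812036, plus strand). Its values were 192.4, 145 and 250.2 in 2-week MHCII-high and 0, 6.4 and 0 in 2-week MHCII-low libraries, the latter resting on 4 reads in all. At 4 weeks they were 214.4, 56.5 and 60.9 in MHCII-high and 29.2, 5.9 and 5.3 in MHCII-low libraries, with 7.4 and 3.4 in the controls. High and low libraries did not overlap at either time, although 1 of the 3 in each 4-week group stood well above the other two. Its log2 fold change came to 6.62 ± 1.02 at 2 weeks (adjusted p = 0.00056) and 4.84 ± 0.72 in the mean of both times (adjusted p = 0.00014). At 4 weeks the ratio of means was 8.21 and the log2 fold change 3.06 ± 1.02 (adjusted p = 0.13), and DESeq2 on the recovered reads called it there (3.03, adjusted p = 0.0152). The 2-week size moved between 4.90 and 8.89 over the alternatives, and the call held in each. That size is set against a group almost at 0, and Ccl17 passed the filter only because of MHCII-high libraries, where it was high. The change of the difference from 2 to 4 weeks was -3.56 ± 1.45 (unadjusted p = 0.023, adjusted p = 0.74).

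The promoters of these Ccr4 ligands and of the Ccr1 ligands Ccl9 and Ccl6 are shown because within each chromosomal pair the neighbours can be read side by side: Ccl22 and Ccl17 were both higher in MHCII-high cells, while of Ccl9 and Ccl6 only Ccl9 passed that test. The sequences are RefSeq promoters on GRCm38.p6, given for 6 of the 10 ligands in the sources used here, cut to the bases before the gene start. For Ccl22 the stretch ends 94 bases before the RefSeq start, where the deposited gene begins. They run 5′ to 3′ on the gene's strand, and capitals mark motif matches on either strand: GGGNNNNNCC (NF-kB), TTCNNNGAA and TTCNNNNGAA (STAT factors, with 3 and 4 bases between the arms), AGGAAG (PU.1) and TGANTCA (AP-1).
Ccl22, chr8:94745434-94745589, plus strand: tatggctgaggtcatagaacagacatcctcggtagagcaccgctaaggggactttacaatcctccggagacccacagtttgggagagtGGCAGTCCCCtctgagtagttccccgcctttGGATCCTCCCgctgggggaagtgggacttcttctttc
Ccl17, chr8:94810203-94810452, plus strand: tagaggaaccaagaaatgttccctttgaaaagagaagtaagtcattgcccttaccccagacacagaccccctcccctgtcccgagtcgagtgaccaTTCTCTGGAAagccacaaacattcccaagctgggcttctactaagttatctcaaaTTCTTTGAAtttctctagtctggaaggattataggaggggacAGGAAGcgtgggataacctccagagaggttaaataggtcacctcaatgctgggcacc
Ccl9, chr11:83578637-83578886, minus strand: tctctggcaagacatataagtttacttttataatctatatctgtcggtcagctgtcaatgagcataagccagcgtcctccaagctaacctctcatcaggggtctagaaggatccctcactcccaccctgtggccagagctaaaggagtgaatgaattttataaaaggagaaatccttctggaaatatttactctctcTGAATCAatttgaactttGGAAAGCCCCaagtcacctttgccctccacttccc
Ccl6, chr11:83593088-83593337, minus strand: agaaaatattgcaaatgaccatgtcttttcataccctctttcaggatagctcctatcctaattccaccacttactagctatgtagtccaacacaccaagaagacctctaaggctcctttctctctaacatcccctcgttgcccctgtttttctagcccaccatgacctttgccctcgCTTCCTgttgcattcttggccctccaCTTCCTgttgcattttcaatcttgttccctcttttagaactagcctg
Ccl22 holds 2 matches of the NF-kB letters, at 162 to 153 and 131 to 122 bases before the RefSeq start, and a PU.1 match at 17 to 12 that lies outside the stretch shown. Ccl17 holds one of each STAT form, at 154 to 145 and 99 to 91 bases before the start, and a PU.1 match at 57 to 52. The STAT letters with 4 bases between the arms occur in 5.85% and those with 3 in 7.02% of the 32851 RefSeq windows of 250 bases. NF-kB letters occur in 45.8%, PU.1 letters in 29.5% and AP-1 letters in 6.75% of those windows. Ccl9 holds an AP-1 match at 53 to 47 and an NF-kB match at 35 to 26 bases before the start, and Ccl6 holds 2 PU.1 matches. The longest stretch the Ccl6 and Ccl9 windows share is 13 bases. Identity over aligned bases was 63.1% for Ccl6 and Ccl9 and 65.9% for Ccl22 and Ccl17, within the 54.0% to 67.0% of all 15 pairs of the 6 promoters. These matches describe the letters only, and no binding was measured.

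Among the Ccr2 ligands, Ccl2 was higher in MHCII-high cells (ENSMUSG00000035385, chr11:82035571-82037453, plus strand). It stood at 269.1, 308.8 and 192.9 normalized counts in 2-week MHCII-high and at 6.7, 27.1 and 26.4 in 2-week MHCII-low libraries. At 4 weeks the values were 124.9, 120.8 and 101 in MHCII-high and 18, 5.9 and 42.6 in MHCII-low libraries, with control values of 77.5 and 18.9. Every MHCII-high library lay above every MHCII-low library, controls included. Means were 257 ± 58.9 against 20.1 ± 11.6 at 2 weeks, a ratio of 12.8, and 116 ± 12.8 against 22.2 ± 18.7 at 4 weeks, a ratio of 5.21 (SD, n = 3 each). The log2 fold change was 3.81 ± 0.79 at 2 weeks (adjusted p = 0.0089), 2.70 ± 0.79 at 4 weeks (adjusted p = 0.079) and 3.25 ± 0.56 in the mean of both (adjusted p = 0.00063). The 2-week call of Ccl2 ended without MHCII-low replicate 1 (3.19, adjusted p = 0.0643), without MHCII-high replicate 1 (3.76, adjusted p = 0.0509) or without MHCII-high replicate 2 (3.66, adjusted p = 0.0624) of that week. DESeq2 on the recovered reads called it at 4 weeks (2.39, adjusted p = 0.0155).

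Ccl7, a monocyte chemoattractant 8258 bases downstream of Ccl2, was read mostly in MHCII-high libraries (204 reads in all; ENSMUSG00000035373, chr11:82045712-82047525, plus strand). It was read at 37.6, 43.4 and 20.9 normalized counts in 2-week and at 60.4, 18.8 and 0 in 4-week MHCII-high libraries. In MHCII-low cells it stood at 0, 1.6 and 6.6 at 2 weeks and at 0 in the 3 libraries of 4 weeks and in both controls. The high and low libraries therefore did not overlap at 2 weeks and did at 4 weeks, where replicate 3, the library that stands apart, had none. Against a floor of 3 reads a library, the 4-week MHCII-high mean of 26.4 was at least 9.09-fold higher than in MHCII-low cells. Ccl7, too, passed the filter only because of MHCII-high libraries, where it was high. Limma put the log2 difference of Ccl7 at 3.52 ± 0.94 in the mean of both times (adjusted p = 0.024), 3.63 ± 1.33 at 2 weeks (adjusted p = 0.17) and 3.42 ± 1.33 at 4 weeks (adjusted p = 0.22). The call of Ccl7 in the mean of both times ended under 7 alternatives (adjusted p up to 0.117), 5 of which left out 1 library: 2-week MHCII-low replicate 1 (adjusted p = 0.0767), 4-week MHCII-low replicate 3 (0.0508), 2-week MHCII-high replicates 1 (0.0502) and 2 (0.0579), and 4-week MHCII-high replicate 1 (0.0589). Without 4-week MHCII-high replicate 3 the 4-week value was 5.12 (adjusted p = 0.0255), and DESeq2 also called Ccl7 at 4 weeks (adjusted p = 0.0185).

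Ccl12, the mouse Ccr2 ligand next in the same cluster after Ccl11, was near the floor (ENSMUSG00000035352, chr11:82101845-82103400, plus strand). It had 30.4, 4.9 and 5.2 normalized counts in 2-week and 0, 18.8 and 0 in 4-week MHCII-high libraries. MHCII-low libraries had 0, 1.6 and 1.1 at 2 weeks, 0, 0 and 3.2 at 4 weeks, and 3.9 and 0.9 in the controls. The high and low ranges were apart at 2 weeks and overlapped at 4 weeks, and in MHCII-high cells 1 library had the highest value by far at each time. Its log2 fold change was 2.57 ± 1.31 at 2 weeks (adjusted p = 0.36), 0.75 ± 1.31 at 4 weeks (adjusted p = 0.85) and 1.66 ± 0.93 in the mean of both (adjusted p = 0.32), so no difference was detectable at this depth.

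The Ccr1 ligand Ccl9 was higher in MHCII-high cells at both times (ENSMUSG00000019122, chr11:83572919-83578636, minus strand). It was read at 4576.2, 3651.1 and 4964.3 normalized counts in 2-week MHCII-high and at 2523.8, 1487.3 and 1503.2 in 2-week MHCII-low libraries. At 4 weeks it stood at 2210.3, 2499.3 and 3420.1 in MHCII-high and at 559.1, 1288.3 and 1766.6 in MHCII-low libraries, with 1236 and 1651.2 in the controls. High and low did not overlap within either week. The ratio of means was 2.39 at 2 weeks and 2.25 at 4 weeks. The log2 fold change was 1.29 ± 0.31 at 2 weeks (adjusted p = 0.023), 1.30 ± 0.31 at 4 weeks (adjusted p = 0.024) and 1.29 ± 0.22 in the mean of both (adjusted p = 0.00052). The mean of both times held under every one of the 26 alternatives, with values between 1.06 and 1.47. The single weeks did not. The 2-week call of Ccl9 ended without MHCII-low replicate 2 or 3 (1.16 and 1.17) or without MHCII-high replicate 1, 2 or 3 of that week (1.26, 1.42 and 1.20; adjusted p up to 0.103). It also ended with no filter (adjusted p = 0.0967), in edgeR with library totals (0.0803) and with the share of mitochondrial rRNA as a covariate (0.165). The 4-week call of Ccl9 ended without MHCII-low replicate 1 (0.82, adjusted p = 0.152) or MHCII-high replicate 3 (1.12, adjusted p = 0.0953), with no filter (0.106), in edgeR with TMM (0.0771) or library totals (0.112) and with that covariate (0.0862).

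Ccl6, whose gene lies 9245 bases from that of Ccl9 on the same strand, did not pass the test between high and low cells (ENSMUSG00000018927, chr11:83587882-83593087, minus strand). It was read at 38713.5, 29042.5 and 32219.3 normalized counts in 2-week MHCII-high and at 44717.2, 33137.3 and 33489.9 in 2-week MHCII-low libraries. At 4 weeks it stood at 31031.2, 33401.4 and 37044.4 in MHCII-high and at 20971.6, 33034.8 and 36626.9 in MHCII-low libraries, and the controls had 15084.8 and 27849.3. The ranges overlapped within both weeks. On the log2 scale, high minus low was -0.15 ± 0.22 at 2 weeks (adjusted p = 0.82) and 0.20 ± 0.22 at 4 weeks (adjusted p = 0.73). E230016K23Rik overlaps Ccl6 on the other strand, with a highest value of 594.8, and Gm17268 overlaps Ccl2 likewise, with 2.5. Whether the counting used strand is not given in the sources used here.

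The Ccr1 ligand Ccl3, also called macrophage inflammatory protein 1 alpha, did not separate high from low cells (ENSMUSG00000000982, chr11:83647844-83649355, minus strand). It was read at 984.3, 1311.5 and 870.5 normalized counts in 2-week MHCII-high and at 1165.7, 1000 and 736.7 in 2-week MHCII-low libraries. At 4 weeks it stood at 501.6, 414.2 and 1090.5 in MHCII-high and at 265.8, 318.6 and 662.1 in MHCII-low libraries, with 1127.7 and 781.7 in the controls. High and low overlapped at both times, and replicate 3 was the highest in both 4-week groups. The log2 fold change was 0.13 ± 0.35 at 2 weeks (adjusted p = 0.91), 0.67 ± 0.35 at 4 weeks (adjusted p = 0.39) and 0.40 ± 0.25 in the mean of both (adjusted p = 0.39). Without replicate 3 of the 4-week MHCII-high cells, the 4-week value of Ccl3 was 0.25 (adjusted p = 0.777).

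Ccl4, macrophage inflammatory protein 1 beta, whose gene lies 13228 bases from Ccl3, had much lower values, and its high and low libraries overlapped within each week (ENSMUSG00000018930, chr11:83662584-83664683, plus strand). It stood at 118.9, 31.9 and 25.2 in 2-week and 25, 12.6 and 122.9 in 4-week MHCII-high libraries. MHCII-low libraries had 4.5, 14.3 and 30.8 at 2 weeks, 20.6, 36.3 and 60.8 at 4 weeks, and 24.5 and 9.5 in the controls, which lay just below the 2-week MHCII-high range. In each MHCII-high group 1 library, replicate 1 at 2 weeks and replicate 3 at 4 weeks, stood far above the other two. The log2 fold change was 1.76 ± 1.00 at 2 weeks (adjusted p = 0.43), -0.06 ± 1.00 at 4 weeks (adjusted p = 0.99) and 0.85 ± 0.71 in the mean of both (adjusted p = 0.54). The mean of both times for Ccl4 was 0.39 without replicate 3 of the 4-week MHCII-high cells.

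Ccl24, the eotaxin, was at or near 0 (ENSMUSG00000004814, chr5:135569937-135573049, minus strand). It had 6.7, 0 and 13.9 normalized counts in 2-week and 0, 39.2 and 0 in 4-week MHCII-high libraries, and 2.2, 0 and 0.6 in 2-week MHCII-low libraries. The 4-week MHCII-low libraries and the controls had no read. In 4-week MHCII-high cells 1 library held all of its reads, so only the values are given.

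Per kilobase of exon, Ccl6 was the most abundant of the 10 ligands in each of the 5 groups, and the order below it differed between high and low cells. In 2-week MHCII-high cells the levels per kb were 18566 ± 2746 for Ccl6, 1603 ± 326 for Ccl22, 1444 ± 222 for Ccl9 and 1378 ± 299 for Ccl3 (SD, n = 3), and the last 3 overlapped. In 2-week MHCII-low cells Ccl6 (20677) was followed by Ccl3 (1263), Ccl9 (604) and Ccl22 (141) on the same scale, with no overlap between neighbours. At 4 weeks Ccl9 (890), Ccl3 (873) and Ccl22 (828) overlapped below Ccl6 (18844) in MHCII-high cells. In 4-week MHCII-low cells Ccl22 (49.2) stood below Ccl4 (59.4), with which it overlapped. Controls had Ccl6 (11959), Ccl3 (1246) and Ccl9 (474) ahead of Ccl2 (42.4) and Ccl22 (41.6).

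Expressed as a share of the summed per-kb level of the 10 ligands, Ccl6 took 77.0% to 95.1% depending on the library (median 89.1%). Ccl22 took 6.02% to 7.05% in 2-week MHCII-high, 2.96% to 4.57% in 4-week MHCII-high and 0.0537% to 0.809% in MHCII-low libraries, controls included. Exon lengths are those of the deposited table, and amplified cDNA without molecular identifiers may cover them unevenly.

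**Figure D3:**
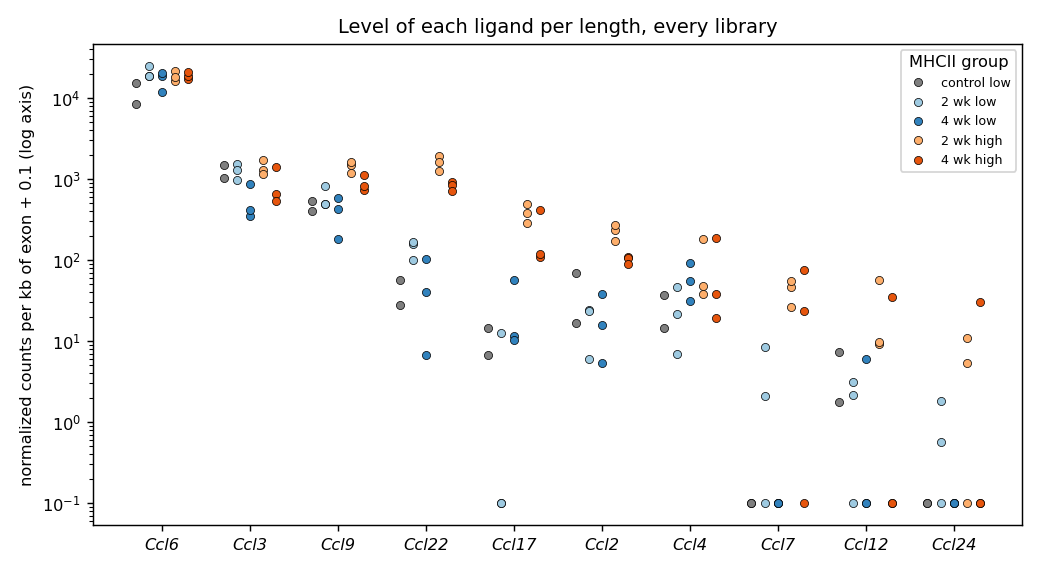
Normalized counts per kb of exon, plus 0.1 so that libraries with no read can be drawn (y axis, log scale), for the 10 ligands in every library, coloured by group. Ccl6 lies above every other ligand in all groups, and Ccl22 spans from 41.6 (mean of the controls) to 1603 (mean of 2-week MHCII-high cells).

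Against the water-treated controls, which both MHCII-low comparisons share, no ligand passed the test in MHCII-low cells at 2 weeks (0 of 10 in limma, where 1.91% of all genes were called in either direction) or at 4 weeks (0 of 10, against 0.046%). At 2 weeks Ccl6 and Ccl22 had an unadjusted p under 0.05, as did 2202 of the 17390 genes tested. DESeq2 called 1 ligand, Ccl6, and edgeR none. At 4 weeks the unadjusted p was under 0.05 for Ccl3 (log2 fold change -1.29) and Ccl6 (0.52), and for 1065 of the 17390 genes tested. Neither edgeR nor DESeq2 called any ligand there. Ccl6 at 2 weeks was 1.73 times the control mean with no overlap, at a log2 fold change of 0.84 ± 0.25 (adjusted p = 0.093). It passed without control replicate 3 (1.28, adjusted p = 0.0263) or without 4-week MHCII-low replicate 1 (0.84, adjusted p = 0.0434). Ccl22 in 2-week MHCII-low cells (235.1 to 385.4) lay above both controls (63.7 and 129.7), at 1.81 ± 0.65 (adjusted p = 0.21), and passed without 4-week MHCII-low replicate 1 (adjusted p = 0.0106).

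Between 2 and 4 weeks no ligand passed in MHCII-low cells (0 of 10, against 0.857% of all genes) or in MHCII-high cells (0 of 10, against 1.07%). Neither edgeR nor DESeq2 called any. In MHCII-low cells the unadjusted p was under 0.05 for Ccl3, Ccl9 and Ccl22, which were lower at 4 weeks. It was also under 0.05 for Ccl17, which was higher at 4 weeks (2.49 ± 1.02) and had 4 reads in all at 2 weeks. Of the 17390 genes tested, 1300 had an unadjusted p under 0.05 in this comparison. Ccl3 was 265.8 to 662.1 at 4 weeks against 736.7 to 1165.7 at 2 weeks, without overlap, at -1.31 ± 0.35 (adjusted p = 0.11). Leaving out 4-week MHCII-low replicate 3 gave -1.70 for Ccl3 (adjusted p = 0.0207), and leaving out 4-week MHCII-high replicate 3 gave -1.31 (adjusted p = 0.0332). Ccl22 in MHCII-low cells was at -2.18 ± 0.58 (adjusted p = 0.096), or -3.04 without 4-week MHCII-low replicate 3 (adjusted p = 0.0024), whose value of 235.6 lay within the 2-week range.

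In MHCII-high cells Ccl3 and Ccl9 had an unadjusted p under 0.05 between the weeks, as did 2426 of the 17390 genes tested. The 4-week libraries of Ccl22, Ccl2 and Ccl9 all lay below the 2-week ones, though none of the 3 passed the test. The share of all genes whose groups do not overlap was not counted, here or in the other comparisons. For 4 over 2 weeks, the log2 fold change was -0.94 ± 0.58 for Ccl22 (adjusted p = 0.50), -1.12 ± 0.79 for Ccl2 (adjusted p = 0.57), -0.71 ± 0.31 for Ccl9 (adjusted p = 0.29) and -0.77 ± 0.35 for Ccl3 (adjusted p = 0.33), or -1.19 for Ccl3 without 4-week replicate 3 (adjusted p = 0.0801). A test of whether the gap between high and low cells itself differed between the weeks (the interaction) was past the threshold for 0 of 10 ligands and for 0 of all genes in limma. Over all genes 987 had an unadjusted p under 0.05, DESeq2 called 56 and edgeR 0, and Ccl17 was the ligand with an unadjusted p under 0.05.

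The receptors were read in the same cells. Of 14 listed CC chemokine receptors and their atypical relatives, 12 were tested. In MHCII-high cells 5 were higher at 2 weeks (Ccr2, Ccr6, Ccr7, Ccr9 and Ccrl2), 3 at 4 weeks (Ccr2, Ccr6 and Ccr7) and 5 in the mean of both, with none lower. Of all genes tested, 2.29%, 1.96% and 5% were called higher in these comparisons. At 2 weeks edgeR with TMM did not call Ccr6 (adjusted p = 0.114) but called Ccr2, Ccr7, Ccr9 and Ccrl2. Ccr4 and Ccr6 passed the filter only because of MHCII-high libraries. Of the other 10, 4 were higher at 2 weeks, 2 at 4 weeks and 4 in the mean of both, with a median log2 fold change of 1.74 there. Of all genes that passed the filter through MHCII-low libraries, 2.17%, 1.89% and 4.8% were called higher. Ccr2, the receptor of Ccl2, Ccl7 and Ccl12, stood at 6045.7, 5789.2 and 8004.2 normalized counts in 2-week MHCII-high and at 892.7, 834.4 and 963 in 2-week MHCII-low libraries. At 4 weeks it was at 3631.7, 3305.8 and 2851.7 in MHCII-high and at 549.7, 648 and 669.5 in MHCII-low libraries, with 726.1 and 639.7 in the controls. The high and low libraries of Ccr2 did not overlap, and the log2 fold change was 2.87 ± 0.19 at 2 weeks (adjusted p = 4.7e-09) and 2.39 ± 0.19 at 4 weeks (adjusted p = 5.6e-08). Within MHCII-high cells Ccr2 was lower at 4 than at 2 weeks (-1.01 ± 0.19, adjusted p = 0.0095).

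Ccr1, a receptor of Ccl3, Ccl6 and Ccl9, was at a log2 fold change of 0.09 ± 0.24 between high and low cells at 2 weeks (adjusted p = 0.91) and 0.14 ± 0.24 at 4 weeks (adjusted p = 0.85). It was higher in 2-week MHCII-low cells than in controls, by 1.38 ± 0.27 (adjusted p = 0.0059). Ccr4, the receptor of Ccl17 and Ccl22, was near 0: its highest value was 30.4, and 7 of 14 libraries had no read. Ccr3, the receptor of Ccl24, did not exceed 197.1. Ccrl2, which binds chemerin and presents it, was higher by 1.40 ± 0.36 at 2 weeks (adjusted p = 0.037) and stood at 1.16 ± 0.36 at 4 weeks (adjusted p = 0.099).

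**Figure D4:**
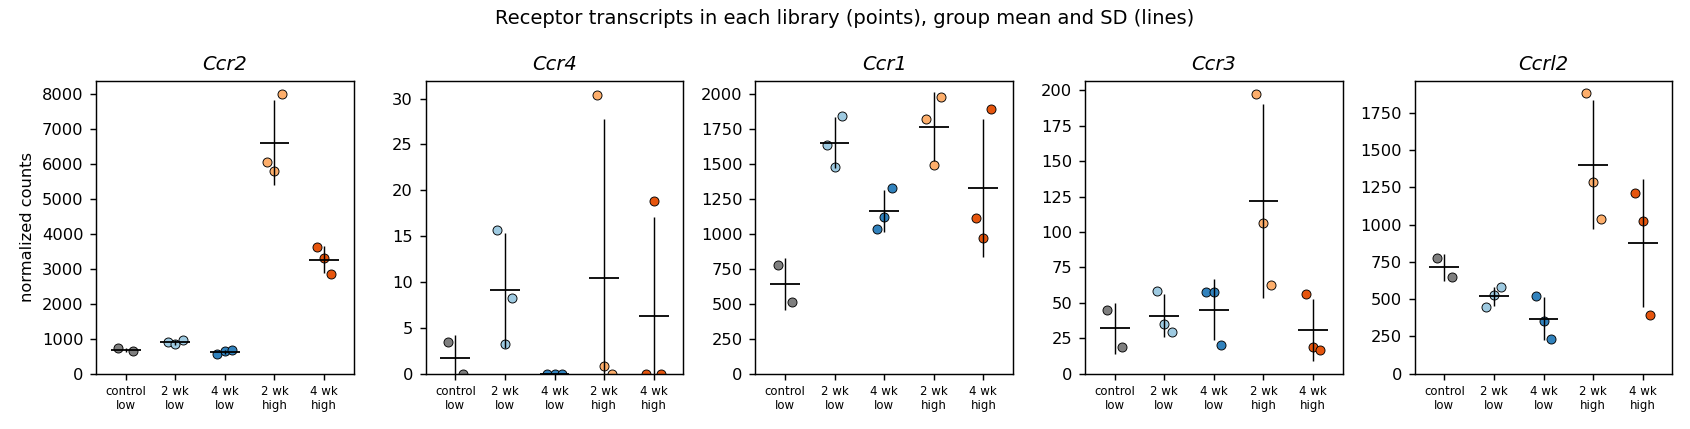
Normalized counts (y axis, its own linear scale from 0 in each panel) of 5 receptors in the 14 libraries by group. Points are libraries, horizontal lines means and vertical lines the SD. Ccr2 separates MHCII-high (2852 to 8004) from MHCII-low libraries (550 to 963), while Ccr4 does not exceed 30.4 in any library.

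Of 13 other CC ligands, 12 were in the table and 5 were tested. Ccl5 and Ccl8 were higher in MHCII-high cells at 2 weeks, Ccl5 at 4 weeks, and both in the mean of both times. Both had passed the filter only because of MHCII-high libraries, that is, where they were high. Ccl5, a T cell and monocyte attractant, stood at 60.7, 39.3 and 64.3 normalized counts in 2-week and at 158.2, 50.2 and 164.3 in 4-week MHCII-high libraries, against 0 to 18.1 in all MHCII-low libraries. Its log2 fold change was 4.25 ± 1.02 at 2 weeks and 4.30 ± 1.02 at 4 weeks (adjusted p = 0.023 in each). Ccl8, in the same cluster as Ccl2, was at 41.7, 42.6 and 65.2 in 2-week MHCII-high and at 0, 8 and 0 in 2-week MHCII-low libraries (4.58 ± 1.23, adjusted p = 0.047). The calls of Ccl8 were those of limma alone: at 2 weeks edgeR and DESeq2 gave adjusted p of 0.283 to 0.304, and in the mean of both times limma gave 0.0497 and the other tools 0.0728 to 0.0765. For Ccl5 at 2 weeks edgeR gave 0.0615 with TMM and 0.0785 with library totals, and DESeq2 called it. In 4-week MHCII-high cells Ccl8 was at 0, 0 and 9.7, and it had no read in 4-week MHCII-low cells or controls. Ccl1, Ccl19, Ccl20, Ccl21a, Ccl21b and Ccl26 were listed at 0 in every library. Among 165 pairs of ligands with transcripts in the GENCODE annotation, 0 shared a stretch of 31 bases.

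Markers of some other cell types moved with the MHCII-high label. Over all genes, 5% were called higher in the mean of both times, and 4.8% of those that passed the filter through MHCII-low libraries. In the mean of both times, 9 of 14 dendritic cell markers passed as higher and 0 as lower with the MHCII-high label (median log2 fold change 3.06), led by Flt3 (6.56, adjusted p = 1.3e-05) and Dpp4 (3.81, adjusted p = 2e-05). Of those 14, 4 passed the filter only because of MHCII-high libraries, and 7 of the other 10 were higher (median 2.99). Their summed level was 1461 to 3167 normalized counts in 2-week and 1928 to 3210 in 4-week MHCII-high cells, against 180 to 322 in 2-week MHCII-low, 136 to 280 in 4-week MHCII-low and 357 to 402 in control libraries. Cd209a and Siglech were at 0 in all 2-week MHCII-low libraries, Cd209a, Il12b and Siglech in all 4-week MHCII-low libraries and Il12b in both controls. Flt3 was at 260.4, 91.7 and 119 in 2-week and 187.3, 280.8 and 228.8 in 4-week MHCII-high libraries. In the 2-week MHCII-low libraries Flt3 was at 17.9, 0 and 0. The part of dendritic cells in the levels of Ccl17 and Ccl22, in MHCII-high or in MHCII-low cells, was not tested.

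**Figure D5:**
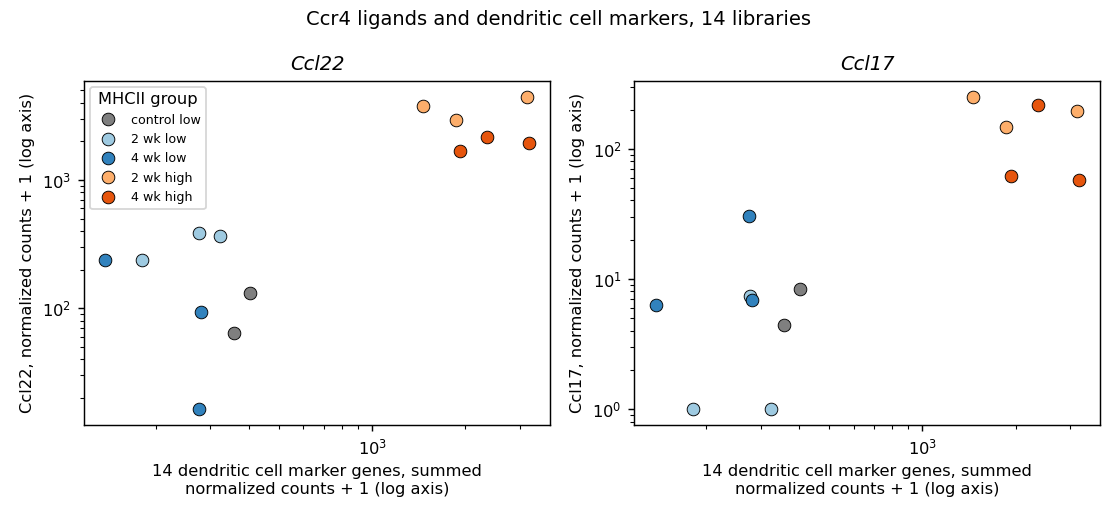
Ccl22 (left) and Ccl17 (right), normalized counts + 1 (y axis, log scale), against the summed level of 14 dendritic cell markers, normalized counts + 1 (x axis, log scale), in 14 libraries coloured by group. The 6 MHCII-high libraries lie at the upper right in both panels, and among the MHCII-low libraries the controls have the highest marker sums (357 and 402).

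Markers of monocytes and interstitial macrophages, among them Ccr2 itself, were higher for 9 of 14 and lower for 0 (median 2.61), led by Ccr2 (2.63 ± 0.13) and Cx3cr1 (4.86 ± 0.33). Their sum was 71419 to 86490 in 2-week and 39509 to 48972 in 4-week MHCII-high cells, and 31722 to 38224, 19321 to 23889 and 17688 to 19990 in 2-week MHCII-low, 4-week MHCII-low and control libraries. None of the 14 was at 0 throughout a group. Of 15 resident alveolar macrophage genes, 0 were higher and 11 lower (median -0.72). Of 8 B cell genes 7 were higher (4 of the 5 that passed the filter through MHCII-low libraries), and of 10 epithelial genes 4 were higher and 1 lower. Of 10 tested T and NK cell genes 1 was higher, Cd4 (2.89, adjusted p = 0.0013), and the median of the 10 was 0.004. Over all genes, 5% were called higher and 7.21% in either direction. Of 9 neutrophil, 7 eosinophil and mast cell, and 10 fibroblast and endothelial genes tested, 0 passed in limma, with an unadjusted p under 0.05 for 1, 2 and 2 of them. DESeq2 called 0, 1 and 1 of these, and edgeR with TMM 0, 1 and 0. The sum of the 14 T and NK cell genes, cells that can also make Ccl3, Ccl4 and Ccl5, was 432 to 936 in 2-week and 195 to 530 in 4-week MHCII-high cells, against 102 to 559 in MHCII-low libraries. The part of these cell types in the ligand levels was not tested. In bulk samples a change in the number of cells of a type and a change in RNA per cell cannot be told apart.

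Over the 14 libraries, Ccl9 and Ccl22 varied most alike among the ligands (Pearson r of log2 values 0.92), followed by Ccl2 and Ccl17 (0.82), Ccl2 and Ccl22 (0.79), Ccl7 and Ccl22 (0.78) and Ccl2 and Ccl7 (0.75). Libraries fall into a high and a low set, and each r carries that split. Among 11422 other genes with a mean of at least 50 normalized counts, those most like Ccl22 were Il18rap (r = 0.97), H2-M2 (0.96) and Rasgrp1 (0.96). Most like Ccl17 were Map3k9 (0.93), Rassf2 (0.92) and Rbpj (0.92), and most like Ccl2 were Rassf2 (0.92), Cd109 (0.92) and Zfp516 (0.91). For Ccl9 they were Ifi209 (0.95), Bcl2 (0.94) and Mras (0.92), and for Ccl7 Sesn1 (0.91), Mmp25 (0.91) and H2-Q4 (0.90). The ligands that did not separate high from low had lower values of likeness: Cpeb4, Ipo5 and Hexim1 reached 0.85, 0.85 and 0.84 with Ccl3, and Creg1, Spcs3 and Snx12 reached 0.86, 0.86 and 0.85 with Ccl6. The closest were Gga3 (0.82) for Ccl4, Apba1 (0.85) for Ccl12 and Zfp324 (0.84) for Ccl24.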

How the data were processed

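Libraries were made by whole-transcriptome amplification and transposase tagging, per the labels' protocols, without molecular identifiers. The authors deposited 1 table of normalized counts, a signal made from gene counts. The submitters' processing notes name STAR, DESeq2 and the build mm10. For the counting program, annotation, strandedness and kind of scale factor: not given in the sources used here. Low values were whole multiples of 1 step a library within the rounding of 0.05, for 100% of them in 13 libraries and 99.9% in 4-week MHCII-low replicate 3, and reads were recovered from these steps. The deposited GC percent was used for a GC correction. Exon lengths were used as deposited.

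All 14 libraries were fitted with limma 3.58.1 (R 4.3.3, mean-variance trend) on log2(value + 1), 1 coefficient a group. This understates changes of low genes. P-values were adjusted over the 17390 genes tested by the Benjamini-Hochberg method, with a threshold of 0.05; adjusted p-values are limma's unless another tool is named. A ± after a log2 fold change is a standard error. Alternatives were other pseudocounts and filters, edgeR 4.0.16 and DESeq2 1.42.0 on recovered reads, TMM scaling, a GC correction, the mitochondrial rRNA share as covariate, the replicate number as a block, and leaving out each library. Counts over genes that pass the filter through MHCII-low libraries were added after the data were seen. The procedure was tested on simulated data. No 2 replicates agreed within sampling noise.

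The 10 ligands and all gene lists were chosen with earlier results of these data known. All ligands and the listed receptors and other CC ligands that were tested may be named; an item is not reported here. From each other list, up to 2 genes with the smallest p and defining markers are named, and for each ligand the 3 genes with the highest r.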

Additional observations from a re-analysis of the deposited data

How the results depend on the processing

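Each of 35 fold changes of ligands was refitted under up to 26 alternatives, 901 values in all: 860 kept their direction and their side of the threshold, 24 lost a call, 13 gained one and 4 changed sign. The sign changes were of values that no setting called: Ccl3 at 2 weeks, high against low (0.13, but -0.0143 in edgeR with library totals and -0.0544 to 0.276 with 1 library left out), and Ccl6 at 4 weeks (0.20, but -0.0441 to 0.358 with 1 library left out). The number of ligands called at 2 weeks, 4, was 3 with no filter, in edgeR with library totals and with the mitochondrial rRNA covariate, and ranged from 2 to 4 when 1 library was left out (2 without 2-week MHCII-high replicate 1 or 2). At 4 weeks it was 2, but 1 with no filter, in edgeR with TMM or library totals and with the mitochondrial rRNA covariate, 5 in DESeq2, and 1 to 2 with 1 library left out (1 without 4-week MHCII-low replicate 1). In the mean of both times it was 4 to 5 throughout. Against control at 2 weeks it was 0, but 1 in DESeq2, with the GC trend removed and with that and the replicate block together, and 0 to 2 with 1 library left out. From 2 to 4 weeks in MHCII-low cells it was 0, and 0 to 2 with 1 library left out. In the other 3 comparisons it was 0 under all alternatives. The cause was not tested. Without 1 control, the other is assumed to vary like the other groups.

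Replicate numbers were not taken to pair the samples: the deviations of same-numbered high and low libraries correlated at 0.00914 to 0.107 (6 pairs) and those of other numbers at -0.124 to 0.077 (12 pairs). The labels do not say whether same-numbered libraries of a week come from the same mice, and these correlations do not settle it. With the replicate block, the count of ligands called was the same in all 8 comparisons (4 at 2 weeks, 2 at 4 weeks, 5 in the mean of both and 0 elsewhere). Over all genes it was 524 against 499 at 2 weeks, 441 against 434 at 4 weeks and 1316 against 1254 in the mean of both.

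The genes called over the whole table ranged over the alternatives from 205 to 1055 at 2 weeks (499), 266 to 898 at 4 weeks (434), 500 to 2122 in the mean of both (1254), 127 to 660 (332) and 1 to 77 (8) against control at 2 and 4 weeks, 92 to 322 (149) and 64 to 638 (186) from 2 to 4 weeks in MHCII-low and MHCII-high cells, and 0 to 56 (0) for the interaction. Another scaling alone moved their split in the mean of both times: 870 were higher and 384 lower, against 767 and 634 with TMM factors before limma. Settings that also change the model or correct for GC moved it too: 824 and 607 in edgeR with TMM and 679 and 725 in edgeR with library totals. At 2 weeks it was 398 and 101, against 359 and 152 with TMM factors before limma, 297 and 135 in edgeR with TMM, 202 and 105 in edgeR with library totals and 378 and 209 with the GC trend removed. From 2 to 4 weeks in MHCII-high cells it was 54 and 132, against 49 and 127 with TMM factors before limma, 35 and 31 in edgeR with library totals, 262 and 376 in DESeq2 and 124 and 133 with the GC trend removed. Library totals moved the median of all genes at 2 weeks from 0.08 to -0.04. Depth, with 1 read worth up to 2.24 normalized counts, limits Ccl7, Ccl12, Ccl17 and Ccl24 in MHCII-low cells.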

Other observations

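Genes of 3 response programs were read in the same fit. Over all genes, 5% were called higher and 7.21% in either direction in the mean of both times. Of 17 tested genes of the response to interleukin 4 and STAT6, 6 passed as higher with the MHCII-high label and 2 as lower in the mean of both times (median log2 fold change 0.22, against 0.02 over all genes), led by Irf4, a transcription factor of dendritic cells and alternatively activated macrophages (2.63 ± 0.21, limma, adjusted p = 2.6e-08), and Mgl2, a galactose-binding lectin (5.98 ± 0.77, adjusted p = 2.3e-05). The 2 lower genes of that list are also on the list of resident alveolar macrophage genes. Of 20 tested NF-kB response genes, 4 were higher and 1 lower (median 0.29), led by Nfkbiz (1.50 ± 0.22, adjusted p = 0.0001) and Traf1, an adaptor of TNF receptor signalling (4.37 ± 0.71, adjusted p = 0.00032). Of 16 immediate early genes, 6 were higher and 1 lower (median 0.48), led by Egr1 (0.93 ± 0.18, adjusted p = 0.0025) and Fosb (1.17 ± 0.25, adjusted p = 0.0047). Of the 17 and the 16, 1 gene each passed the filter only because of MHCII-high libraries. Over the other 16 and 15, 5 were higher in each list and the medians were 0.15 and 0.44. The counts called in either direction depended on the tool. For the NF-kB list they were 5 in limma, 4 in edgeR with TMM, 3 with library totals and 10 in DESeq2. In the same order they were 7, 7, 4 and 9 for the immediate early list and 8, 9, 9 and 9 for the interleukin 4 list.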
